A study of Mus musculus with 8 samples.

Results

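Fructose bisphosphatases and phosphofructokinases run opposite directions of the same step of glucose metabolism, and they were followed here together with the aldolases, which act on the product of that step. Phosphofructokinase adds a phosphate to fructose phosphate and commits the sugar to glycolysis. Fructose bisphosphatase removes that phosphate and is a control point of gluconeogenesis, the making of glucose. The PFKFB enzymes make and break a second fructose bisphosphate, which is not a fuel but a signal that activates phosphofructokinase and inhibits fructose bisphosphatase. Aldolase splits fructose bisphosphate into triose phosphates and also runs in reverse. Fbp1 is the isoform known from liver and kidney and Fbp2 the isoform known from muscle, where it binds aldolase.

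The members were chosen by gene symbol: Fbp1, Fbp2, Pfkl, Pfkm, Pfkp, Pfkfb1, Pfkfb2, Pfkfb3, Aldoa and Aldoc. The set was assembled around the rise of Fbp2 in tumors, so every value of a member in the comparison of tumors with parental cells is given as a description, and no test of a member in it is used as evidence. Of 22690 probe sets on the array, 18 carried a member's symbol. They covered 9 of the 10 genes listed, out of 12393 genes named on the array, and 17 of the 18 probe sets passed the filter on low values. No probe set was named for Pfkfb1, which is not analysed here. None of the 18 probe sets carried the symbol of another gene.

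The parental cells were FL5.12, a mouse pro-B cell line that needs interleukin-3, stably transfected with Bfl-1DC and with p53DD. The labels describe neither construct further and name no clone. These cells were injected into the veins of nude mice, which lack a thymus but keep myeloid cells, B cells and the stroma of the spleen, and splenic tumors of 3 mice were taken, so that parental cells and tumors carried both constructs. Each source (the parental cells and each tumor) was measured on 2 Affymetrix arrays of the type Mouse Genome 430A_2.0, which makes 8 in all, numbered 1 and 2 within each source and called here the first and the second array. Age and sex of the mice are not given in the labels, and whether the tumor cells were cultured before RNA was made is not stated.

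The deposited signal of a probe set is an intensity on a linear scale, and every array had a trimmed mean of about 150.06 and a median between 32.4 and 37.9. Precision is limited by the small number of arrays. The labels do not name separate cultures for the 2 parental arrays, and p-values resting on their spread may measure technical variation, whereas the spread over 3 tumors is that between mice. The cells' label was only partly borne out by markers: of 12 pro-B markers 10 had a probe set, and Vpreb1, Rag1, Rag2, Dntt, Ebf1 and Blnk never exceeded the 40th percentile of any array (15.6 to 20.7). The summed pro-B signal was 220.3 to 223 in parental cells and 437 to 621 in tumors. Markers of several other cell types, but not of all, moved up with the tumors. The 5 eosinophil markers summed to 27.1 to 30.9 in parental cells and 3620.1 to 8141 in tumors. The 12 neutrophil markers summed to 332 to 838 and 4151 to 9924, and 12 macrophage and monocyte markers to 175 to 887 and 789.9 to 3198. The macrophage and monocyte sums thus overlapped, and Csf1r alone read 555 on the second parental array. Camp, Ccr3, Il5ra, Cd163, C1qa and C1qc of these lists never exceeded the percentile, and neither did Cd3e, Cd247, Cd4 and Cd8b1 among 7 T cell markers, whose sum was 60.7 to 71.5 in parental cells and 858 to 2579 in tumors. Limma called higher 2 of 3 eosinophil, 2 of 10 neutrophil, 3 of 7 macrophage and monocyte, 1 of 2 T cell and 1 of 3 pro-B markers tested. The sum of 6 erythroid markers was lower in tumors, at 445 to 765 in parental cells and 203 to 295 in tumors. Most of the parental sum came from Hemgn, which read 712 and 397 in parental cells and 95.0 to 219 in tumors. Of the other erythroid markers tested, Trim10 (log2 change 1.24) and Slc4a1 (0.57) had all tumor arrays higher, and Epb42 overlapped. Sums also overlapped for 6 platelet and megakaryocyte markers (549 to 667 and 543 to 864) and 6 endothelial markers (320 to 328 and 260 to 470). Limma called none of the erythroid, platelet and endothelial markers tested. The part of such cells in the values below was not tested.

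Fbp2 and Fbp1 are adjacent on chromosome 13 in the RefSeq annotation, and their promoter windows are shown because the neighbouring genes differed so much in signal. Each window runs from 250 bases before to 50 bases after the annotated start, from RefSeq on build GRCm38.p6, written 5′ to 3′ on the minus strand. It lies at chr13:62858351-62858650 for Fbp2 and at chr13:62888233-62888532 for Fbp1. Capitals mark CANNTG, the E-box core that many basic helix-loop-helix factors recognise, among them those of muscle and B cells. CANNTG reads the same on both strands, and neighbouring matches can abut.
Fbp2: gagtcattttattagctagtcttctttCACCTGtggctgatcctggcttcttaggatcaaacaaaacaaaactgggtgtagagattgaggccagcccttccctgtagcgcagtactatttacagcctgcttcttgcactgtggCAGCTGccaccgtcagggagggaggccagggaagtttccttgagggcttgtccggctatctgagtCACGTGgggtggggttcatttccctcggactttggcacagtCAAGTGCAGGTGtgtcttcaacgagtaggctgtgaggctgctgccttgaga
Fbp1: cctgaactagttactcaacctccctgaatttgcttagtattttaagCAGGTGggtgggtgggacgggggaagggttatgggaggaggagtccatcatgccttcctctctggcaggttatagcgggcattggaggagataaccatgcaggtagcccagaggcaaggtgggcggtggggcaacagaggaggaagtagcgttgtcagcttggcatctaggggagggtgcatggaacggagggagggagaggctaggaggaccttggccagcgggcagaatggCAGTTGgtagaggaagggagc
The Fbp2 window held 5 CANNTG matches and the Fbp1 window 2. At least 1 match was present in 72.3% of 32851 promoter windows of this length, at least 2 in 39.6% and at least 5 in 2.1%. CACGTG, the form read by Myc and related factors and itself a CANNTG, occurred once in the Fbp2 window, starting 42 bases before the annotated start, and was absent from the Fbp1 window, against 7.15% of all windows with a match. Neither window held TATAAA, searched on both strands, which 13.6% of windows held. The GC content was 52.7% for Fbp2 and 57.3% for Fbp1. A match is a description of letters and shows no binding.

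Fbp2 went from signals at the bottom of the scale in parental cells to among the higher signals in every tumor. The parental arrays gave 2.22 and 4.29. The arrays of tumor 1 gave 1079 and 1762, those of tumor 2 gave 772 and 975, and those of tumor 3 gave 972 and 1582. All 6 tumor arrays lay far above both parental arrays. The parental mean was 3.26 ± 1.47 (SD, n = 2 arrays) and the tumor mean 1190.3 ± 283 (SD, n = 3 tumors). Neither parental array exceeded the 40th percentile of its array (15.97 and 15.6), so Fbp2 entered the genes tested through its tumor arrays alone and its fold is a lower bound: the tumor mean was at least 73.9-fold higher than that percentile. On the scale of log2(signal + 16) the change was 5.91 ± 0.23 (SE). This value depends on the added constant, and was 8.11 with a constant of 1 and 4.17 with a constant of 64.

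The changes of Fbp2 in the single tumors were of like size. They were 6.18, 5.52 and 6.03 on the log2 scale for tumors 1, 2 and 3, all against the same parental arrays. The mean signals were 1420.3 in tumor 1, 874 in tumor 2 and 1277 in tumor 3. The largest difference, tumor 1 over tumor 2, was 0.66 ± 0.31 (SE), and limma's F test over the 3 tumors did not call Fbp2 (adjusted p = 0.626). With the array number added to the fit, limma's adjusted p was 0.125 in the F test and 0.0968 for tumor 1 against tumor 2. In neither fit was a difference between tumors detectable against the spread of the duplicate arrays. The probe set of Fbp2 was the only one for this gene, so no second probe set could be set beside it. Because a tumor sample can hold a mixture of cells, more cells of a type with Fbp2 and more Fbp2 RNA per cell cannot be told apart in these values.

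Fbp1, the neighbouring liver isoform, was low in parental cells and somewhat higher in the tumors. The parental signals were 23.4 and 19.2. The tumor arrays gave 32.6 and 114 for tumor 1, 36.8 and 34.3 for tumor 2, and 45.8 and 54.0 for tumor 3. All tumor arrays lay above both parental arrays, but the arrays of tumor 1 were furthest apart, so that 1 array carried much of its mean. The parental mean was 21.3 ± 3.01 (SD, n = 2 arrays) and the tumor mean 52.9 ± 19.1 (SD, n = 3 tumors), a log2 change of 0.79 ± 0.22 (SE). The change was 0.46 among the first arrays alone and 1.13 among the second arrays alone. The array with the highest Fbp1, the second of tumor 1, was also the array with the highest signal of 4 of 7 macrophage and monocyte markers tested (Lyz2, Adgre1, Cd68 and Itgam) and of 5 of 10 neutrophil markers tested (Ltf, Ngp, S100a8, S100a9 and Cd177). The other markers of these lists peaked on other arrays, Csf1r on a parental array. In a test of array number given below, limma called Lyz2, Adgre1, Cd68 and Itgam higher on second arrays (adjusted p = 0.00827 to 0.0496). Of the 5 neutrophil markers it called Ngp and S100a9, and it did not call Fbp1 (0.382). How many of all genes peaked on the second array of tumor 1 was not counted, so nothing is read from these counts of markers. Lyz2, the lysozyme of macrophages and granulocytes, read 18.5 and 16.6 in parental cells, 45.7 and 903 for tumor 1, 93.2 and 437 for tumor 2, and 86.7 and 475 for tumor 3. Whether such cells carry the Fbp1 signal was not tested.

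Tissues known for these isoforms left few of their markers on the arrays. Of 13 skeletal muscle markers, 9 never exceeded the 40th percentile of any array: Mb, Myh4, Myh1, Myh2, Tnnt3, Tnnc2, Actn3, Pygm and Pgam2. The summed muscle signal was 849 to 905 in parental cells and 947 to 1512 in tumors. Its largest part came from Ckm, the muscle creatine kinase, which read 450.3 and 501 in parental cells and 743 to 1115 on the tumor arrays, and which limma did not call (log2 change 0.89, adjusted p = 0.0948). For Ckm all tumor arrays lay above both parental arrays. Eno3, another marker of this list, read 409 and 277 in parental cells and 121 to 403 on the tumor arrays. All 6 liver markers with a probe set, Alb, Apoa1, Ttr, Fga, Fgb and Ahsg, stayed below the percentile on every array, and their sum was 18.6 to 19.5 in parental cells and 17.6 to 31.2 in tumors.

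The phosphofructokinases, the enzymes opposing Fbp2, were expressed in parental cells and overlapped with the tumors at every probe set. Pfkl, the liver-type subunit, read 491 and 179.9 in parental cells. In tumors it read 443 and 244, 649.5 and 378, and 504 and 399.8 for tumors 1, 2 and 3. The parental arrays alone spanned most of this range, at 335 ± 219.7 (SD, n = 2 arrays) against 436 ± 86.0 (SD, n = 3 tumors), and the log2 change was 0.47 ± 0.40 (SE). Leaving out the first parental array gave 1.15 and leaving out the second gave -0.22, so the sign of this change rested on a parental array. The other probe set of Pfkl gave 0.42.

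Pfkm, the muscle-type subunit, read 174 and 122 in parental cells, 144 and 84.2 for tumor 1, 182 and 107 for tumor 2, and 143 and 108 for tumor 3. The means were 148 ± 36.7 (SD, n = 2 arrays) and 128 ± 15.3 (SD, n = 3 tumors), and the log2 change was -0.20 ± 0.20 (SE). Pfkp, the platelet-type subunit, read 629.9 and 408 in parental cells, 533 and 301 for tumor 1, 617 and 445 for tumor 2, and 566 and 328 for tumor 3. Its means were 519 ± 157 (SD, n = 2 arrays) and 465 ± 59.1 (SD, n = 3 tumors), with a log2 change of -0.17 ± 0.23 (SE), and its other probe set gave -0.34. For both subunits the groups overlapped and the standard error was as large as the change or nearly so. Without the first parental array the changes turned to 0.029 for Pfkm and 0.13 for Pfkp, and without the second they were -0.43 and -0.47.

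The PFKFB enzymes gave low signals. Pfkfb3, the isoform that favours making the regulatory bisphosphate and is induced by hypoxia and growth signals, read 46.2 and 28.7 in parental cells. Tumor 1 read 84.8 and 98.6, tumor 2 read 47.2 and 85.6, and tumor 3 read 52.5 and 60.7. All tumor arrays lay above both parental arrays, the lowest of them at 1.02 times the higher parental value, so the groups barely separated. The means were 37.5 ± 12.4 (SD, n = 2 arrays) and 71.6 ± 18.1 (SD, n = 3 tumors), a log2 change of 0.70 ± 0.24 (SE) that was 0.29 among the first arrays and 1.11 among the second. At the other probe set of Pfkfb3 the groups overlapped and the change was 0.23. Pfkfb2, the heart-type isoform, stayed between 4.45 and 35.0 on all arrays at its main probe set, with overlapping groups and a change of -0.094 ± 0.24 (SE). Its next probe set gave 0.27, and its remaining probe set did not pass the filter on low values.

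The aldolases differed from each other. Aldoa, the ubiquitous and muscle aldolase, was high and even: 1963 and 1814 in parental cells, 1730.3 and 2042 for tumor 1, 1851 and 1890.3 for tumor 2, and 1548 and 2049.8 for tumor 3. The means were 1889 ± 105 (SD, n = 2 arrays) and 1852 ± 46.6 (SD, n = 3 tumors), and the log2 change was -0.034 ± 0.15 (SE). Its 4 probe sets gave changes from -0.12 to 0.0012, all with overlapping groups, and all are of a type that can cross-hybridise with related sequences. The change was -0.20 among the first arrays and 0.13 among the second.

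Aldoc, the aldolase known from brain, was the member with the next largest change after Fbp2. It read 18.8 and 1.16 in parental cells, 274 and 242 for tumor 1, 115 and 46.4 for tumor 2, and 78.3 and 72.5 for tumor 3. All tumor arrays lay above both parental arrays, and tumor 1 lay above the other tumors. The parental mean was 9.96 ± 12.4 (SD, n = 2 arrays) and the tumor mean 138 ± 104 (SD, n = 3 tumors), a log2 change of 2.42 ± 0.55 (SE), and of 1.89 without tumor 1. Its other probe set was low throughout, at 0.91 and 2.69 in parental cells and 7.14 to 27.5 in tumors, with a change of 0.76. Only the first parental array exceeded the 40th percentile, and the size of the change ran from 4.12 with an added constant of 1 to 1.33 with a constant of 64.

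Of the 9 members, 4 had all 6 tumor arrays above both parental arrays, namely Fbp2, Fbp1, Pfkfb3 and Aldoc, against 10.4% of the 8535 genes tested. None had all tumor arrays below both parental arrays, against 8.3%. At an adjusted p under 0.05 limma held 1 member, Fbp2, against 0.762% of genes. With all 8 arrays entered singly it held 2, Fbp2 and Aldoc, against 4.16% of genes, and with the array number as a block the same 2 against 14.6%. Nothing is read from these counts: this comparison chose the family, and Fbp2 had to differ once it passed the filter through tumor arrays alone. The median log2 change was 0.47 over the members and 0.022 over all genes tested.

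**Figure D1:**
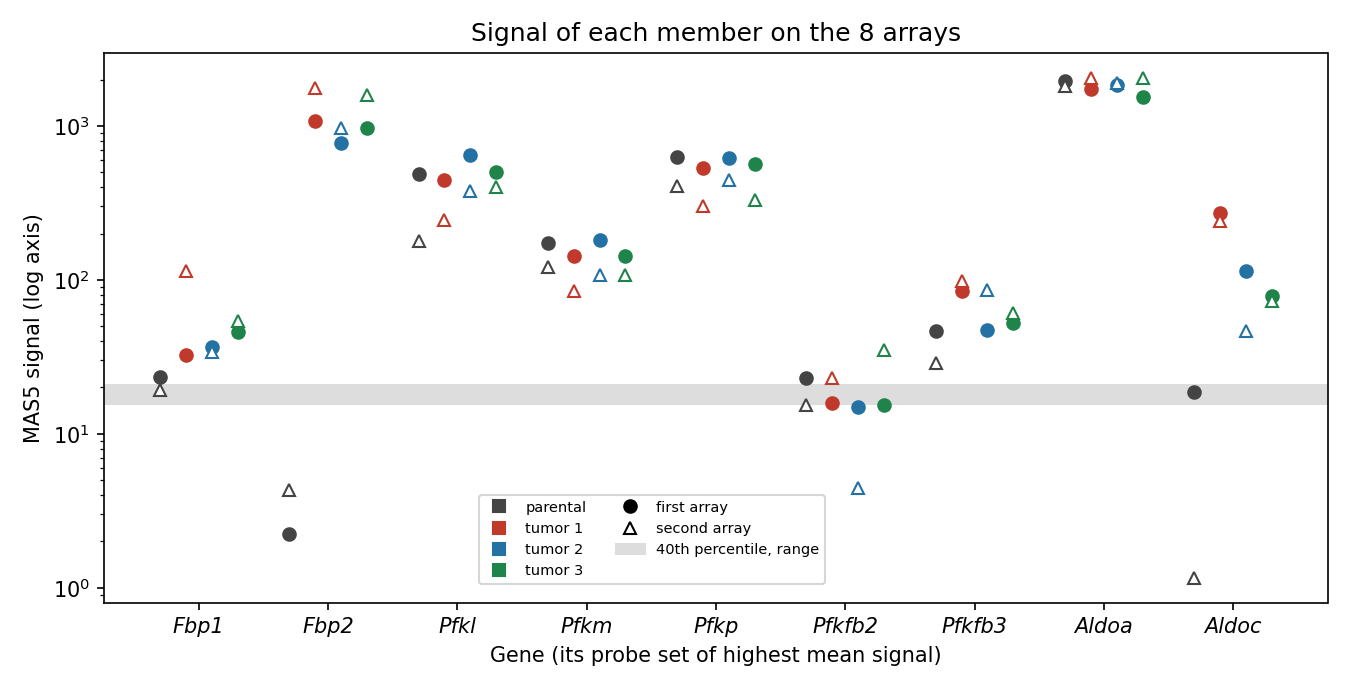
Signal of the 9 measured members on the 8 arrays, on a log axis, with each gene shown by its probe set of highest mean signal. Colours mark the source, filled circles the first and open triangles the second array, and the grey band the range of the 40th percentile (15.6 to 20.7); Fbp2 lies below the band in parental cells and between 772 and 1762 in tumors.

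The differences among the 3 tumors were not used to choose the members, and here the members can be tested. The test was limma's F test over the tumor means in the fit of all 8 arrays, whose spread is that between duplicate arrays of a source. It called none of the 9 members, against 1.63% of all genes, and at an unadjusted p under 0.05 it held 1 member, Aldoc, against 12.5% of all genes. Adjusted p was 0.158 for Aldoc, 0.626 for Fbp2, 0.608 for Pfkfb2, 0.639 for Pfkfb3 and 0.789 for Fbp1. It was 0.871 for Pfkl, 0.93 for Pfkm, 0.905 for Pfkp and 0.987 for Aldoa.

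With the array number as a replicate block, the F test called Aldoc (adjusted p = 0.0239), against 6.48% of all genes. Tumor 1 exceeded tumor 2 by 1.60 ± 0.41 (SE) and tumor 3 by 1.58 ± 0.41 on the log2 scale without the block. The adjusted p of these differences from limma was 0.0266 and 0.0226 with the block, and 0.169 and 0.138 without it. Tumors 2 and 3 differed by -0.017. Over all alternatives tried, the adjusted p of the F test of Aldoc ran from 0.0239 to 0.68, and it passed only with the block.

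The duplicate arrays of each source differed in the same direction for several members, a pattern tested after it was seen. The array number entered the fit of all 8 arrays as a term, and limma called the second array lower for 7.99% of genes and higher for 7.89%. Among the members, all 3 phosphofructokinase subunits were called lower on the second array, and Fbp2 was called higher. Of the cell markers tested, 6 of 7 for macrophages and monocytes and 2 of 10 for neutrophils were called higher on the second array. That compares with 7.89% of all genes, and no marker of these lists was called lower. Of 4 erythroid markers tested, 1 was called lower. The labels do not say what the numbers stand for, and the cause of the difference between first and second arrays was not tested.

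Pfkp was lower on the second array of all 4 sources, by 0.61 in parental cells, 0.79 in tumor 1, 0.46 in tumor 2 and 0.76 in tumor 3 on the log2 scale, and the fitted difference was -0.65 ± 0.11 (SE, adjusted p = 0.0149, limma). Pfkm fell in all 4 sources as well, with a fitted difference of -0.54 ± 0.11 (adjusted p = 0.0214). Pfkl fell most in parental cells, by 1.37, and least in tumor 3, by 0.32, and its fitted difference was -0.82 ± 0.17 (adjusted p = 0.0233). For all 3 subunits this difference between arrays of the same RNA source was larger than the change between tumors and parental cells. Fbp2 was higher on the second array in all 4 sources, by 0.16 in parental cells, where it was under the 40th percentile, and by 0.70, 0.33 and 0.69 in tumors 1, 2 and 3. Its fitted difference was 0.47 ± 0.13 (adjusted p = 0.0487), small beside the change of 5.70 among the first arrays and 6.12 among the second.

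The second array was lower in all 4 sources for 4 members, the 3 phosphofructokinases and Aldoc, against 21% of all genes, and higher in all 4 sources for 1 member, Fbp2, against 20.7%. Aldoc did not pass the test (-0.59 ± 0.19, adjusted p = 0.081), and passed it with the filter at the 60th percentile (0.0475) and with a trended robust prior (0.0428). Fbp1, Pfkfb2, Pfkfb3 and Aldoa went in either direction depending on the source, with adjusted p between 0.382 and 0.959. Dropping either array of a source takes that source out of this comparison. Pfkp was then lost without tumor 1 (0.0594) or tumor 2 (0.0573), Pfkm without parental cells (0.0552), tumor 1 (0.08) or tumor 2 (0.0918), Pfkl without the same 3 sources (0.0555, 0.0803 and 0.0811), and Fbp2 without any of the 4 sources (0.057 to 0.153). Fbp2 was also lost with no filter on low values (0.0781), and Pfkl with a pseudocount of 1 (0.0592).

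**Figure D2:**
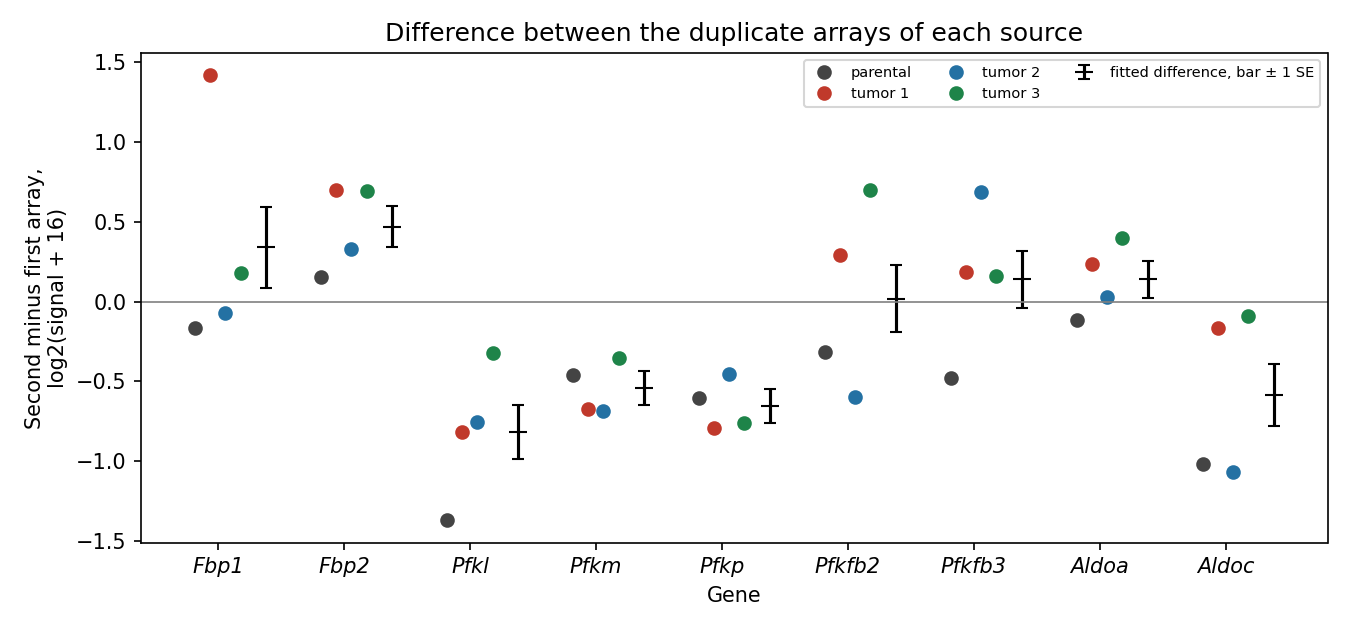
Difference between the duplicate arrays of each source, the second minus the first on the log2(signal + 16) scale, for each member. Points are the 4 sources and crosses the fitted difference with bars of 1 SE; Pfkl, Pfkm and Pfkp lie below 0 in all 4 sources and Fbp2 above 0 in all 4.

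The rest of the pathway gave few changes beside Fbp2. The lists held 71 other genes of glycolysis, gluconeogenesis, the pentose phosphate pathway, entry of fructose and glycogen, and regulators, of which 45 were tested. Limma called 1 of them higher and 0 lower in tumors, against 0.586% and 0.176% of all genes, and their median log2 change was 0.088. The gene called was Prkab1, a regulatory subunit of the energy sensor AMPK. It read 16.01 and 15.2 in parental cells, 137 and 160.5 for tumor 1, 152 and 260.5 for tumor 2, and 206 and 271 for tumor 3. All tumor arrays were higher, the log2 change was 2.72 ± 0.21 (SE, adjusted p = 0.00456), and a further probe set of Prkab1 gave 2.77. The parental signals of Prkab1 lay close to the 40th percentile of their arrays (15.97 and 15.6). Its change therefore depends on the added constant, and was 3.53 with a constant of 1 and 1.69 with a constant of 64. Without the first or the second parental array the adjusted p was 0.0845 or 0.105. With all 8 arrays and the replicate block, where the spread is that between duplicate arrays and not between mice, limma called 4 of the 45 genes higher and 1 lower, against 8.72% and 5.91% of all genes. Those higher were Prkab1, H6pd (adjusted p = 0.0157), Pgm1 (0.0268) and Ugp2 (0.0498), and the gene lower was Hif1a (0.0474).

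Of 23 other glycolysis genes, 15 were tested and none was called by limma in either direction, adjusted or at an unadjusted p under 0.05. Of these, 8 had a change above 0, and their median was 0.076. The 3 with the largest changes were Bpgm, which makes the bisphosphoglycerate that loosens oxygen from haemoglobin (-0.64 ± 0.33, adjusted p = 0.395), Pkm, a pyruvate kinase (0.57 ± 0.28, adjusted p = 0.37), and Slc16a1, a lactate carrier (-0.41 ± 0.22, adjusted p = 0.394). The other probe sets of Bpgm gave -0.39 and -0.062. Gapdh was present only as control probe sets and was not tested, with log2 changes of 0.13 to 0.17 and overlapping groups. Hk1, which traps glucose as its phosphate, Slc2a1, a glucose carrier, and Slc16a1 were lower on the second array, as the phosphofructokinases were (-0.53, -0.70 and -0.40, limma adjusted p = 0.0182, 0.0226 and 0.0359). This was not limited to glycolysis. Of the 45 other pathway genes tested, 8 were called lower and 1 higher, against 7.99% and 7.89% of all genes. Those lower were 3 of glycolysis, 2 of gluconeogenesis, 2 of fructose and glycogen entry and 1 regulator.

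**Figure D3:**
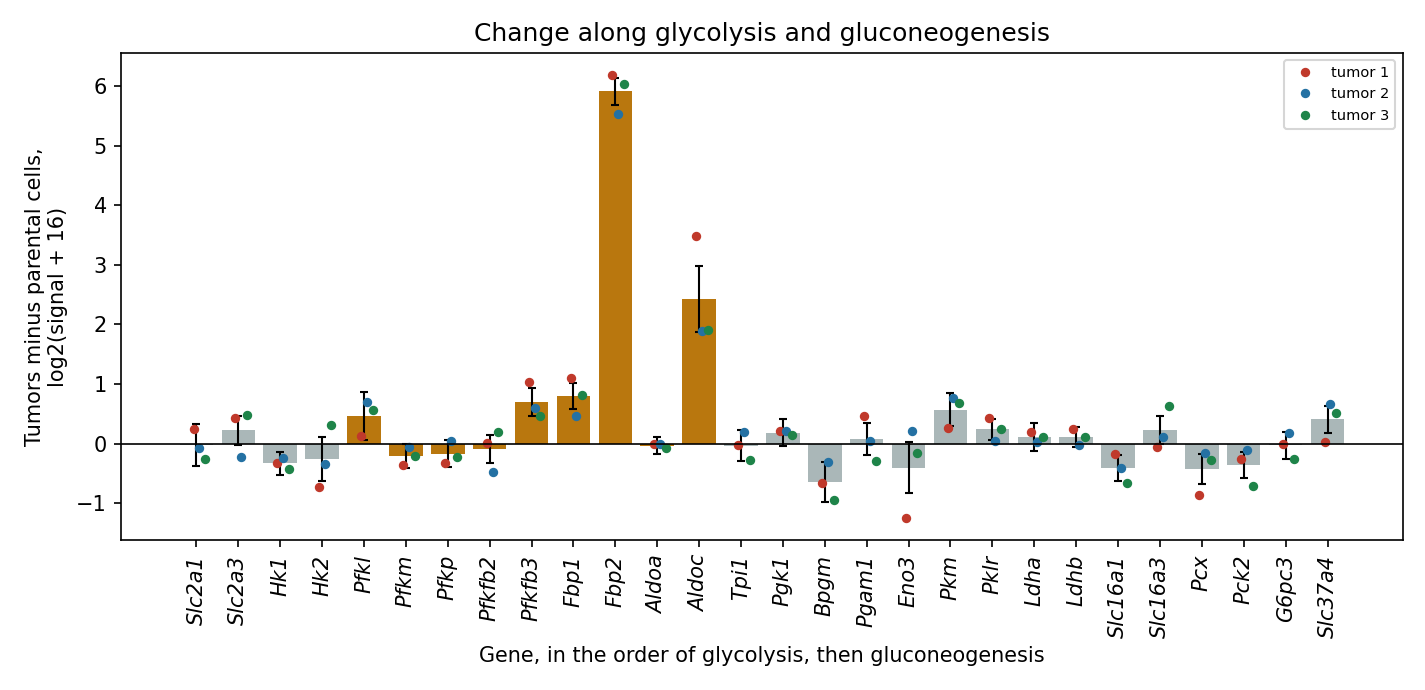
Change between tumors and parental cells on the log2(signal + 16) scale for tested genes of glycolysis and then gluconeogenesis, with the members in orange. Bars are the mean over 3 tumors with 1 SE from limma and points are single tumors; Fbp2 stands at 5.91 and Aldoc at 2.42, and the other genes shown lie between -0.64 and 0.79.

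Of 12 other gluconeogenesis genes, 9 were tested, and limma called none in either direction, adjusted or at an unadjusted p under 0.05, against an adjusted call in 0.762% of all genes. The median change was -0.072. Pck1 and G6pc, which with fructose bisphosphatase and Pcx define the liver's route to glucose, never exceeded the 40th percentile of any array. Pcx, which makes oxaloacetate from pyruvate, had a change of -0.43 ± 0.25 (adjusted p = 0.443). Got1, a transaminase of the malate and aspartate shuttle, had -0.48 ± 0.21 (adjusted p = 0.318). Slc37a4, a carrier of glucose phosphate, had 0.41 ± 0.23 (adjusted p = 0.428).

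In the pentose phosphate list 7 of 10 genes were tested and none was called without the block. H6pd, the glucose phosphate dehydrogenase of the endoplasmic reticulum, had all tumor arrays above both parental arrays and a log2 change of 1.11 ± 0.28 (adjusted p = 0.141). Tigar, which breaks down the regulatory bisphosphate, was named on no probe set and is not analysed here. Of 14 genes of fructose and glycogen entry 7 were tested and none was called without the block. Hif1a, the hypoxia factor that induces Pfkfb3 and Aldoc in other systems, had a change of -0.51 ± 0.17 (adjusted p = 0.227), and its signal was 858 and 885 in parental cells and 494 to 786 on tumor arrays. Of its other probe sets that passed the filter, one gave -0.46 with all tumor arrays lower. Another gave -0.14 with overlapping groups.

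Genes beside Fbp2 and Fbp1 on chromosome 13 had smaller changes than Fbp2. The 5 tested genes on each side had log2 changes from -1.50 to 0.40, and limma called none of the 10 (adjusted p from 0.144 to 0.991). In order of position these were Dapk1 (0.33), Ctla2b (-1.28), Tpbpb (-0.16), Ctla2a (-1.50) and 2810408B13Rik (0.40) on the Fbp2 side. On the Fbp1 side they were Aopep (-0.64), Fancc (-0.51), Ptch1 (-0.46), Ercc6l2 (-0.0059) and Habp4 (-0.48). The median over 292 tested genes of chromosome 13 was -0.014. The other members lie on other chromosomes, except Pfkp, which is also on chromosome 13.

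**Figure D4:**
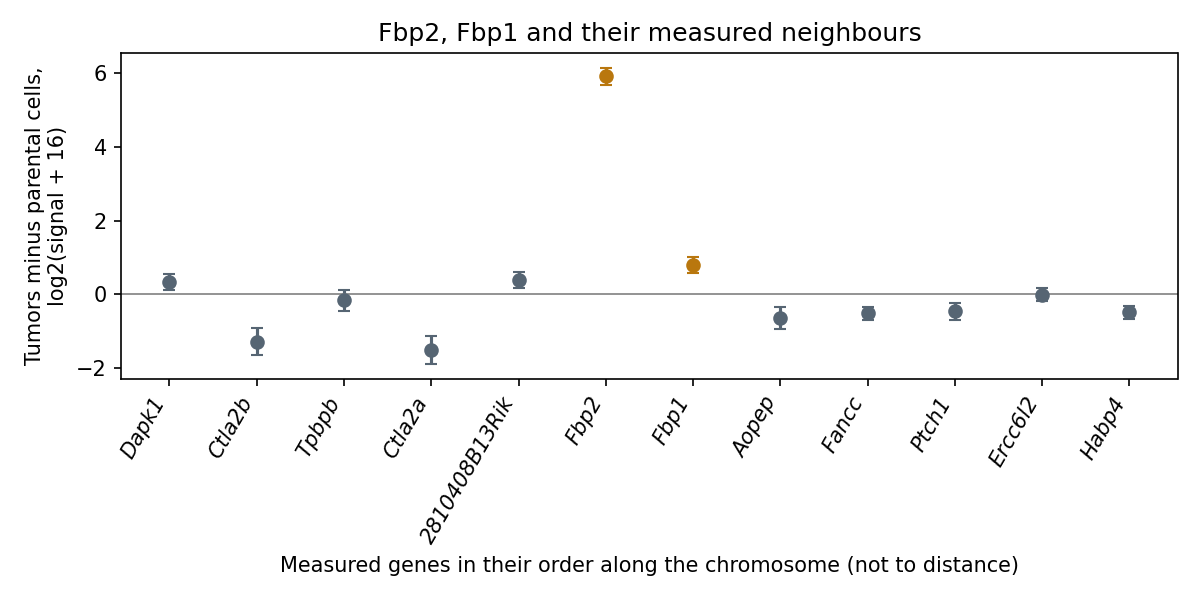
Log2 change between tumors and parental cells for Fbp2, Fbp1 and the 5 tested genes on each side, in their order along the chromosome and not to distance. Points are fitted changes with bars of 1 SE; Fbp2 stands at 5.91 and the 10 neighbours between -1.50 and 0.40.

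The genes whose pattern over the 8 arrays was most like that of Fbp2 were Slfn4, Epx, Mpo, Cd3g and Ccr2. Likeness was the root-mean-square difference between log2 values centred on each gene's mean, and it was 0.47, 0.52, 0.55, 0.70 and 0.78. Slfn4 is a Schlafen gene of myeloid cells, Epx the eosinophil peroxidase, Mpo the myeloperoxidase, Cd3g a subunit of the CD3 complex of T cells and Ccr2 a chemokine receptor of monocytes. All 5 were low in parental cells and high in every tumor, with log2 changes of 5.59, 7.05, 6.19, 4.46 and 5.01. Patterns over 8 arrays from 4 sources share the arrays and the same contrast, and their likeness is a description.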

How the data were processed

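The authors deposited 1 linear intensity (signal) for each probe set, made with MAS5 per the submitters' processing notes. For MAS5, no version or setting is named in the sources used here. All arrays had the same trimmed mean (2% removed at each end) and so share a scaling target, which can lower other genes where a class of RNA grows. Duplicate arrays correlated at 0.951 to 0.972 across genes. Probe sets were named from the platform annotation and updated by gene ID to RefSeq (GRCm38.p6), with 20351 of 22690 matched. In the annotation as a whole, 20380 probe sets had 1 symbol, 691 several and 1555 none, and 64 were controls, left out. RefSeq lists Fbp1 and Fbp2 as each other's older names, and gene IDs kept them apart.

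Signals were taken as log2(signal + 16), which understates changes of low genes. Probe sets over the 40th percentile of their array on at least 2 of 8 arrays were kept, and the probe set with the highest mean stood for each gene (8535 genes). Tumors (mean of 2 arrays each, n = 3) were compared with 2 parental arrays, and tumors with each other in a fit of all 8 arrays (4 residual degrees of freedom, 3 with the array number as a block), with limma 3.58.1 in R 4.3.3, two-sided, Benjamini-Hochberg adjustment at 0.05 over all genes. Scripts were tested on simulated data. After the mean of each source was removed, arrays with the same number correlated at 0.401 to 0.596 in each of 6 source pairs, and the numbers were therefore taken to pair arrays.

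Members and gene lists were chosen with earlier results of these data known. Named genes are all members, other pathway genes called, the 3 largest changes of the glycolysis and gluconeogenesis lists, Tigar, Gapdh, Hif1a, Pck1 and Pcx, 5 tested neighbours on each side of Fbp1 and Fbp2, and the 5 genes most like Fbp2. H6pd, Pgm1, Ugp2, Pgd, Rpia, Hk1, Hk2, Slc2a1, Lyz2, Csf1r, Hemgn, Trim10, Slc4a1, Epb42, Ckm and Eno3 were singled out after their values were seen. Alternatives were pseudocounts of 1 and 64, median centring, quantile normalization, no filter, the 60th percentile as filter, other summaries of probe sets, a trended robust prior, all 8 arrays entered singly, the replicate block and leaving out each sample. The test of array number and the values within an array number were added after seeing the data.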

Additional observations from a re-analysis of the deposited data

Results flagged for a closer look

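Eno3, the muscle enolase of glycolysis, differed among the 3 tumors by limma's F test (adjusted p = 0.0414). Its signal was 409 and 277 in parental cells, 145 and 121 for tumor 1, 403 and 381 for tumor 2, and 319 and 281 for tumor 3. Tumor 1 thus lay below all other arrays, and the log2 changes against parental cells were -1.25, 0.21 and -0.16. With the replicate block the adjusted p was 0.00688. The call was lost in 8 of 17 alternatives: without any of the 6 tumor arrays (0.107 to 0.193), with no filter (0.0671) and with a pseudocount of 1 (0.0867). Eno3 is not a member, and tumor 1, in which it was lowest, was the tumor with the highest Aldoc. The cause was not tested.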

How the results depend on the processing

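The rise of Fbp2 kept its direction in all 18 alternatives, which was fixed in advance and adds no support. The rise chose the family, and Fbp2 passed the filter through tumor arrays alone. Its log2 change was 8.11 with a pseudocount of 1 and 4.17 with 64, and 5.78 to 6.11 when a sample was left out. The count of genes called between tumors and parental cells was 65 (50 higher and 15 lower, 76.9% higher). It was 26 with no filter, 33 with a pseudocount of 64, 355 with all 8 arrays, 1248 with the replicate block, and 12 to 72 when a sample was left out (16 and 12 without the first and the second parental array). Median centring moved the median of all genes by -0.11 and gave 48 higher and 28 lower (63.2% higher). Members called, a count that the choice of Fbp2 fixed in part, were 1 against 0.762% of genes. They were 2, Fbp2 and Aldoc, with all 8 arrays (against 4.16%) and with the replicate block (against 14.6%). Other pathway genes called were 2 with all 8 arrays, 5 with the replicate block (4 higher, 1 lower), and 0 to 1 in leave-outs.

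Among tumors, 139 genes and 0 members were called. The gene count was 81 with no filter, 72 with a pseudocount of 1, 553 with the replicate block, which also called 1 member, and 39 to 102 in leave-outs. By array number 1355 genes were called. The count was 2423 with every probe set, 809 with no filter, 629 with a pseudocount of 1, and 0 to 793 in leave-outs. It was 0 by limma without either array of tumor 2, where 2203 genes had an unadjusted p under 0.05.

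Signs turned for Aldoa with the second arrays alone (0.13) and without the first parental array (0.023). When a sample was left out they turned for Pfkl (-0.22 to 1.15), Pfkm (-0.43 to 0.029) and Pfkp (-0.47 to 0.13), where the parental arrays gave both ends. Pfkfb2 kept its sign in 13 of 17 alternatives, with changes from -0.32 to 0.13. The cause was not tested. With 2 parental arrays and 3 tumors, small changes of the other members are not resolved. Signals near background limit Pfkfb2, parental Fbp1, parental Fbp2, parental Aldoc and, outside the members, parental Prkab1.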

Other observations

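Of the 45 pathway genes tested, 4 (8.89%) had all tumor arrays above both parental arrays, against 10.4% of all genes, and 2 (4.44%) had all below, against 8.3%. Beside Prkab1, H6pd and Hif1a these were Pgd, Ugp2 and Rpia, which were singled out after their values were seen. Ugp2, which makes the sugar donor of glycogen, had a log2 change of 0.42 ± 0.15 (SE, adjusted p = 0.253, limma), and Rpia, the ribose phosphate isomerase, one of -0.42 ± 0.19 (adjusted p = 0.332). Pgd, a dehydrogenase of the pentose phosphate pathway, had 0.57 ± 0.28 (adjusted p = 0.368), but its lowest tumor array (449.9) barely exceeded its highest parental array (449.6), and the groups overlapped at 2 of its 4 probe sets.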
